A study of Mus musculus with 9 samples.

Results

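The tight junction is the belt that seals neighbouring epithelial cells to each other near their apical surface and decides what passes between them. Its strands are built from claudins, a family of small membrane proteins. Some of them line pores for ions and water, others close the path, and the mix of claudins sets how leaky an epithelium is. Occludin, another strand protein, and the scaffold ZO-1, encoded by Tjp1, tie the strands to one another and to the actin cytoskeleton. In the colon this seal keeps bacteria and salts in the lumen apart from the tissue below. The genes described here are Cldn2 and Cldn15, which encode claudins that form cation pores, Cldn3, Cldn4, Cldn7 and Cldn8, whose claudins mostly tighten the junction, Ocln and Tjp1. They were chosen by gene symbol. The platform's annotation assigns 12 of 22690 probe sets to these 8 genes, namely 4 to Cldn3, 2 to Cldn2 and 1 to each of the others.

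RNA came from the proximal colon of 9 mice, 3 wild-type, 3 heterozygous and 3 mutant at cSHMT. This locus, Shmt1, encodes the cytoplasmic serine hydroxymethyltransferase, which passes 1-carbon units from serine to folate. The mice were C57Bl/6 after 10 generations of backcrossing, 9 weeks old, and all had been weaned at 3 weeks onto AIN-93G chow lacking folate and choline, for 6 weeks by one label and 5 weeks by another. No group ate a complete diet, and the labels describe neither the altered allele nor the sex. The labels call the 3 colons of a genotype biological replicates, each on its own array, and this number limits the precision of every value.

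Of the 12 probe sets 10 were bright enough to test, covering 7 of the 8 genes. The only probe set of Cldn4 and the dimmer one of Cldn2 lay below the limit of 75.5 signal units. Signals are the deposited linear values, given as mean ± SD with n = 3. Fold changes and p-values come from limma on quantile normalized log2 signals, fitted to all 13576 tested probe sets, and a call needed a Benjamini-Hochberg adjusted p below 0.05. Different probe sets bind with different strength, so levels are compared between genotypes on 1 probe set and never between genes.

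Shmt1 matched the labels, with 594.7 ± 43.2, 303.1 ± 31.6 and 116.7 ± 3.46 signal units on its most changed probe set in wild-type, heterozygous and mutant colons. Correlations between arrays over all probe sets were 0.9858 to 0.9934. Beta-actin signal from the 3' end over that from the 5' end can reflect how far RNA was shortened. It was 4.45 to 5.02 on the 3 arrays numbered 1 and 2.52 to 3.75 on the other 6. What raised the ratio here was not tested. Each member's fold change against wild-type is also given without those 3 arrays. All 12 epithelial markers, Epcam, Cdh1, keratins and others, were above the limit, with summed signals of 48173 to 56036 in wild-type mice, 46721 to 52787 in heterozygotes and 45101 to 55484 in mutants, so the genotypes overlapped. Of 7 small intestine markers named on the array, 5 were above the limit, including the ileal genes Fabp6 and Slc10a2, while Lct and Apoa4 were not. In whole tissue, fewer epithelial cells and less RNA per cell cannot be told apart.

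No member was called in any of the 3 comparisons. Over all probe sets tested, 0.0221% were called between mutant and wild-type, 0% between heterozygous and wild-type and 0.0221% between mutant and heterozygous. The median size of the log2 fold changes of the 10 member probe sets was 0.0995, 0.0623 and 0.0802 in these comparisons, beside 0.0922, 0.1145 and 0.1177 over all tested. Among the 10 tested probe sets Cldn8 had the largest log2 fold changes. It read higher in mutant colons than in both other genotypes, and it was the only tested member with an unadjusted p below 0.05, in 2 comparisons. In these comparisons 1.92% and 4.07% of all tested probe sets had an unadjusted p below 0.05 and were higher in mutant than in wild-type and in heterozygous colons. The dimmer Cldn2 probe set, fitted only without the filter, gave a larger log2 fold change, 0.77 in heterozygous against wild-type colons (limma unadjusted p = 0.0361).

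The tested member probe sets whose 3 values in one genotype lay entirely above or below those of another were few. On the deposited scale these were Cldn8 higher and Cldn3 lower in mutant against wild-type (4.04% and 2.95% of all tested probe sets), Tjp1 higher and Cldn3 lower in heterozygous against wild-type (6.03% and 5.9%), and Cldn8 higher, with 0 lower, in mutant against heterozygous colons (5.75% and 4.59%). After normalization Cldn3 stayed lower in both comparisons with wild-type and 0 were higher (backgrounds of 4.19% and 7.42% lower, 4.23% and 7.28% higher), and Cldn8 stayed higher than in heterozygous colons with 0 lower (6.35% and 6.08%). A single probe set of 10 is the smallest share above 0 that these counts can take, so nothing is read from them.

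**Figure D1:**
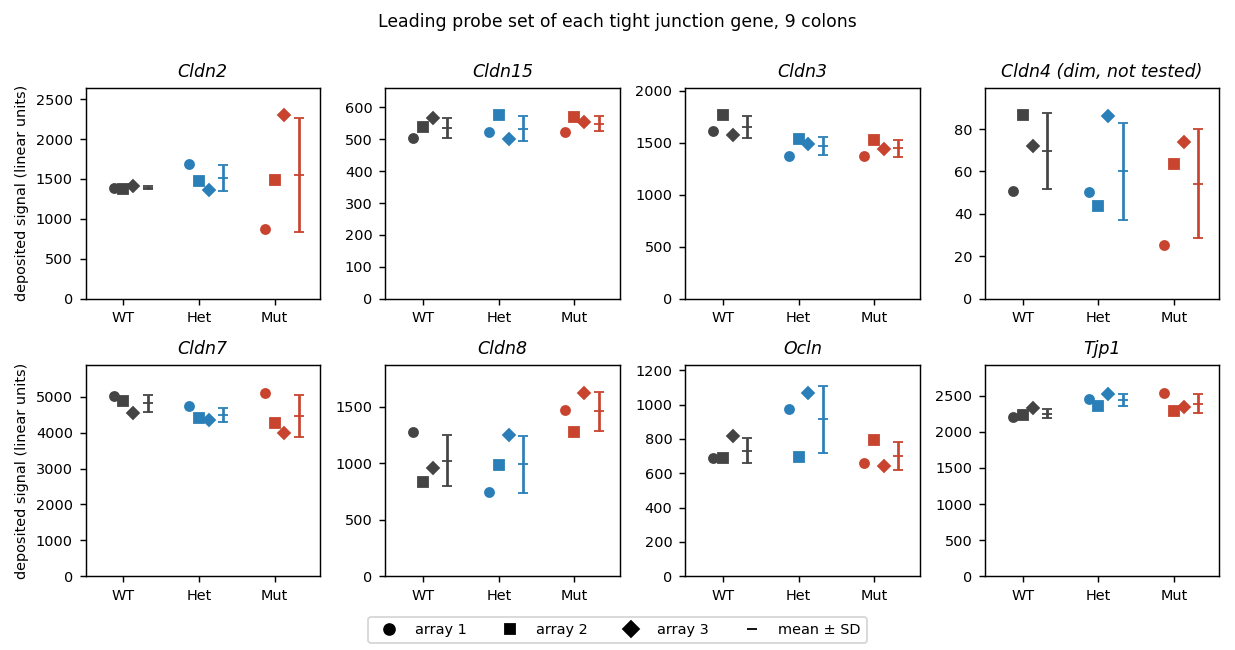
Deposited signal (linear units, each axis from 0) of the leading probe set of each of the 8 genes in wild-type (WT), heterozygous (Het) and mutant (Mut) colons; symbols mark the array number within a genotype, and bars give mean ± SD of 3 arrays. Mutant values of Cldn8 lie above all others, Cldn2 spreads widely in mutant colons, and the other genes overlap or differ by little.

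Cldn2 encodes the claudin of the leaky crypt epithelium, a pore for sodium and water. It read 1387, 1372.9 and 1412.1 in the wild-type colons, 1691, 1474.8 and 1365 in the heterozygous and 877.2, 1488.3 and 2299.6 in the mutant ones. The wild-type values lay within 1.03-fold of each other, while the mutant ones spanned 2.62-fold, with mutant 1 below and mutant 3 above all other arrays. The genotype means were thus close, 1391 ± 19.9, 1510 ± 166 and 1555 ± 714, and the log2 fold change of mutant against wild-type was 0.08 (SE 0.251, 95% confidence interval -0.47 to 0.63, limma adjusted p = 0.998). On the log2 scale the SD among mutant colons was 0.674, as large or larger in only 0.869% of tested probe sets, and the wild-type SD of 0.03 was matched or exceeded by 96.3%. The sign of the mutant difference rested on single colons: it was 0.41 without mutant 1, the lowest, and -0.26 without mutant 3, the highest. Without the 3 arrays numbered 1 it was 0.40 (adjusted p = 0.972), and heterozygous against wild-type was 0.0127.

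The dimmer probe set of Cldn2 repeated part of this. It read 29, 68.3 and 122.7 in mutant colons, again lowest in mutant 1 and highest in mutant 3. Unlike on the bright probe set, the wild-type values also spread widely, over 2.8-fold. On the deposited scale the array with the highest 3' to 5' ratio was the lowest of its genotype in all 3 genotypes, and after normalization in 2. The former held for 23.5% of all tested probe sets. The part of whatever raised the 3' to 5' ratio in this spread was not tested. In heterozygous colons it read 94.5, 107 and 97.7, above all 3 wild-type values of 28, 53.1 and 78.3. With the filter on dim probe sets removed, this heterozygous difference had a log2 fold change of 0.77 (SE 0.322, limma unadjusted p = 0.0361, adjusted p = 0.672). A size as large was seen in 0.663% of tested probe sets. On the bright probe set the log2 fold change was 0.09 (SE 0.251, limma adjusted p = 0.95). The sizes from both probe sets thus differed for heterozygous colons, and neither gave a call.

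Cldn15, the pore claudin that supplies sodium to the lumen for nutrient uptake in the small intestine, gave close values throughout. It read 503.1, 539 and 566.9 in wild-type mice, 523.9, 575.9 and 499.6 in heterozygotes and 523.2, 570.5 and 553.7 in mutants, so all genotypes overlapped. The log2 fold changes were 0.02 in mutant and -0.02 in heterozygous colons, each against wild-type (SE 0.113). The intervals, -0.22 to 0.27 and -0.27 to 0.23, leave room only for differences smaller than those measured for Cldn8. The log2 fold changes were 0.0162 and -0.0451 without the 3 arrays numbered 1.

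Upstream sequence from RefSeq (assembly GRCm38.p6) was found for 7 of the 8 genes, in 9 windows that reach from 250 bases before to 50 bases after a start of transcription. Cldn8 was not matched. Each window was searched on both strands for CAGGTG, an E-box bound by the repressors Snai1 and Snai2, for TTTAT, the core letters bound by the intestinal factors Cdx1 and Cdx2, and for TATAAA, the TATA box, which overlaps TTTAT read on the opposite strand. A stretch of 250 bases before the start is shown for each of 2 genes, 5′ to 3′ on the strand of the gene with matches in capitals, because between them they hold all 3 motifs: Cldn2 lies on the plus strand at chrX:139800558-139800807 and Cldn4 on the minus strand at chr5:134946935-134947184.
Cldn2: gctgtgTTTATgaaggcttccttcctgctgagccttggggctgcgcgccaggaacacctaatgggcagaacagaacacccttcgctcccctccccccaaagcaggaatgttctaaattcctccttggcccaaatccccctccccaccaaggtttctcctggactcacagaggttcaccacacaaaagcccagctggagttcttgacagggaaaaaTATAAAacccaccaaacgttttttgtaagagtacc
Cldn4: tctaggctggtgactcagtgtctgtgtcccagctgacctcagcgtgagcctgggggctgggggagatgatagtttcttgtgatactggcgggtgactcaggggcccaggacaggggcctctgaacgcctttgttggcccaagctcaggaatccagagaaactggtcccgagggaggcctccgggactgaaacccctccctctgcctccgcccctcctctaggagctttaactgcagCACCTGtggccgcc

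In Cldn2 a TATAAA began 35 bases before the start and a further TTTAT 244 bases before it. In Cldn4 the E-box, read on the opposite strand, began 14 bases before the start, and another lay 11 bases after it, beyond the stretch shown. CAGGTG occurred in 4 of the 7 matched genes, Cldn3, Cldn4, Cldn7 and Ocln, that is, in 5 of the 9 windows, and in 20.2% of all 32851 windows of the table. The Ocln windows overlap, and the same E-box lies in each of them, so these windows are not independent. TTTAT occurred in Cldn2, Cldn15 and Tjp1, and in 40% of all windows. TATAAA occurred in Cldn2 alone among the members, and in 13.6% of all windows. These are matches of letters and not measured binding. Snai1 and Snai2 were below the limit on this array, and the log2 fold changes of Cdx1 and Cdx2 were -0.08 and -0.0056 in mutant against wild-type colons (limma adjusted p = 0.998 for both).

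Cldn3, an abundant sealing claudin throughout the gut, was read by 4 probe sets. On the brightest it read 1612.3, 1768.1 and 1571.8 in wild-type mice, 1372.4, 1541.9 and 1487.7 in heterozygotes and 1369.5, 1532.1 and 1444.2 in mutants. All 6 carriers of the mutation lay below all 3 wild-type colons on this probe set, at 88.9% and 87.8% of the wild-type mean. The log2 fold changes in heterozygous and mutant against wild-type colons were -0.18 (SE 0.09, limma adjusted p = 0.647) and -0.19 (SE 0.09, adjusted p = 0.998), so neither passed. Without the 3 arrays numbered 1 they were -0.15 and -0.17.

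The other Cldn3 probe sets gave a mixed picture. In mutant against wild-type colons their log2 fold changes were -0.21, -0.09 and -0.29, all negative, but their values overlapped. In heterozygous against wild-type colons they were -0.06, 0.01 and 0.04, so the lower heterozygous value of the brightest probe set was not shared. That probe set carries the suffix _x_at, which marks probes that can also match other sequences. The probe set with the value of 0.01 carries it too, so the suffix does not set the brightest apart. Over the 9 arrays the correlation of the brightest probe set with the others was 0.46 to 0.67, while the others correlated with each other at 0.79 to 0.95.

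Those 3 other Cldn3 probe sets followed the 3' to 5' ratio only in part. In wild-type mice array 2, with a ratio of 3.15, read above array 3, with 2.52, on all 3 probe sets. On each of them the array with the highest 3' to 5' ratio was the lowest of its genotype in all 3 genotypes, as in 23.5% of all tested probe sets on the deposited scale and 10.3% after normalization. The dimmest of them read 276.1, 505.8 and 375 in wild-type mice, 304.4, 394.9 and 486.1 in heterozygotes and 182.2, 314.9 and 477.4 in mutants. The brightest Cldn3 probe set had its lowest array there in 2 of 3 genotypes. With the ratio in the fit the brightest probe set gave -0.18 in heterozygous and -0.19 in mutant against wild-type colons, close to the values without it.

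**Figure D2:**
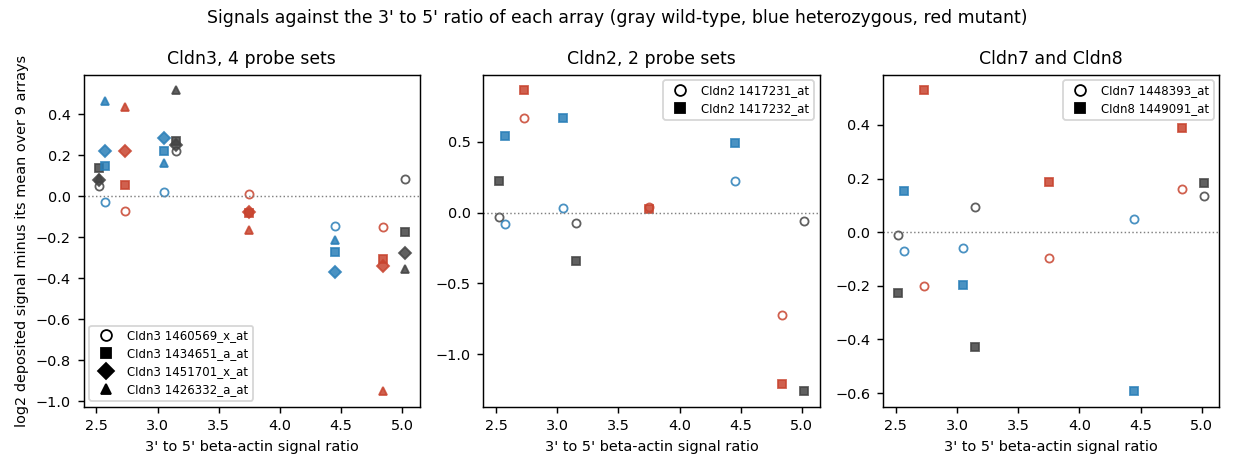
Log2 deposited signal minus its mean over the 9 arrays (vertical) against each array's beta-actin ratio, 3' over 5' (horizontal) for Cldn3, Cldn2, Cldn7 and Cldn8; colours mark genotypes and symbols probe sets. On 3 Cldn3 probe sets the arrays with ratios of 4.45 to 5.02 are lowest, while Cldn8 shows no such order.

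Cldn4, a claudin that blocks sodium and is known from surface epithelium of the colon, was near the lower end of the array. It read 50.7, 86.6 and 71.8 in wild-type mice, 50.4, 43.5 and 86.1 in heterozygotes and 25.3, 63.3 and 74.1 in mutants, and all genotypes overlapped. With no filter, the log2 fold change of mutant against wild-type was -0.34, with an interval of -0.93 to 0.24 (limma adjusted p = 0.998), which is wide enough to hold a decrease of the size of the Cldn8 difference. This value rested on mutant 1, the lowest array: without it the log2 fold change was -0.0459, and without the 3 arrays numbered 1 it was -0.15. Heterozygous against wild-type was -0.23, and -0.31 without those 3; it was -0.12 without wild-type 2, -0.0694 without heterozygous 2 and -0.42 without heterozygous 3.

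Cldn7 lies along the lateral membrane, where it pairs with the adhesion protein EpCAM. It read 5019.9, 4882.8 and 4541.5 in wild-type mice, 4729.3, 4396.2 and 4352.9 in heterozygotes and 5114.5, 4274.4 and 3979.5 in mutants. Mutant 1 was the highest array of all and mutant 3 the lowest. The log2 fold changes were -0.10 in mutant and -0.06 in heterozygous colons against wild-type (SE 0.066, limma adjusted p = 0.998 and 0.83). On the deposited scale array 1 was the highest of its genotype in all 3 genotypes. After normalization it was the highest in 1 of 3, the mutant, and the lowest in the other 2. The mutant SD on the normalized log2 scale was 0.023. Without the arrays numbered 1 the log2 fold changes were -0.17 (adjusted p = 0.873) and -0.0895.

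Cldn8 closes the paracellular path to sodium in the colon and the kidney's collecting duct. It read 1277.2, 835.7 and 960 in wild-type mice, 744.8, 980.8 and 1249.7 in heterozygotes and 1472.5, 1280.9 and 1624.9 in mutants. The 3 mutant values were above all other arrays on the deposited scale, although mutant 2 exceeded wild-type 1 by a few units, and after normalization that pair changed places. Mutant colons averaged 1459 ± 172, against 1024 ± 228 in wild-type and 991.8 ± 253 in heterozygous colons.

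The log2 fold change of Cldn8 was 0.53 in mutant against wild-type (1.44-fold, SE 0.196, 95% interval 1.07-fold to 1.94-fold) and 0.57 in mutant against heterozygous colons (1.49-fold, SE 0.196, 1.1-fold to 2-fold). Unadjusted p-values were 0.021 and 0.0138, and the limma adjusted p-values were 0.998 and 0.623, so neither passed. A size as large was seen in 1.56% and 1.72% of tested probe sets. The comparisons share the mutant arrays and are not independent of each other. Heterozygous against wild-type gave -0.05 (-0.48 to 0.38, adjusted p = 0.969). Both mutant estimates stayed positive when any of the 9 arrays was left out, between 0.38 and 0.71 against wild-type and between 0.41 and 0.74 against heterozygous colons. With the mean of the epithelial markers in the fit they were 0.56 and 0.57, and with the 3' to 5' ratio 0.53 and 0.57. Without the 3 arrays numbered 1 they were 0.68 and 0.38 (adjusted p = 0.448 and 0.481), and heterozygous against wild-type was 0.30 (adjusted p = 1).

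**Figure D3:**
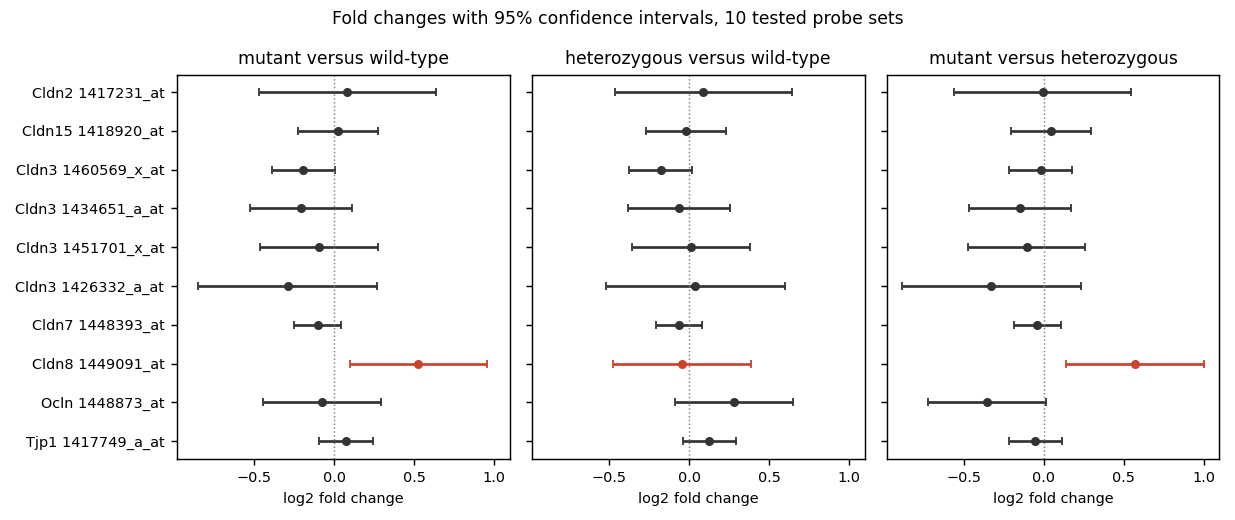
Log2 fold change (horizontal) with its 95% confidence interval from limma for the 10 tested probe sets of the 7 genes in the 3 comparisons. Only the intervals of Cldn8 (red) in the 2 comparisons with mutant colons lie above 0, before adjustment for the 13576 probe sets tested.

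Ocln encodes occludin, a strand protein that shapes how the junction is regulated. It read 690.6, 690.9 and 814.9 in wild-type mice, 974.3, 697.2 and 1069.5 in heterozygotes and 660.4, 793.8 and 642.5 in mutants. Heterozygous 1 and 3 were above all other arrays, while heterozygous 2 lay among the wild-type and mutant values. Heterozygous colons read 125% of the wild-type mean (log2 fold change 0.28, SE 0.168, limma adjusted p = 0.697), and mutant colons 76.5% of the heterozygous mean (-0.36, SE 0.168, adjusted p = 0.668). Mutant against wild-type was -0.08, with an interval of -0.45 to 0.29. The size of both differences to heterozygous colons depended on single heterozygous arrays. Heterozygous against wild-type was 0.47 without heterozygous 2 (adjusted p = 0.706) and 0.17 without heterozygous 3, and mutant against heterozygous was -0.55 (adjusted p = 0.72) and -0.25. Without the 3 arrays numbered 1 heterozygous against wild-type was 0.20, mutant against wild-type -0.0753 and mutant against heterozygous -0.28.

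Tjp1, the gene of ZO-1, the scaffold to which claudins and occludin bind, had a small and even spread. It read 2198.7, 2235.7 and 2322.6 in wild-type mice, 2454, 2357.2 and 2522.8 in heterozygotes and 2541.4, 2286.7 and 2342.3 in mutants. The heterozygous values were above all wild-type ones on the deposited scale, but not after normalization. The log2 fold changes were 0.13 in heterozygous and 0.07 in mutant colons against wild-type (SE 0.076, limma adjusted p = 0.698 and 0.998), and the upper ends of their intervals were 0.29 and 0.24. They were 0.10 and 0.0208 without the 3 arrays numbered 1. With any 1 array left out they lay between 0.08 and 0.17 and between 0.0283 and 0.12, each lowest without wild-type 1.

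The members did not move as one group. In mutant against wild-type colons 4 of the 7 tested genes had a positive and 3 a negative log2 fold change on their leading probe set, between heterozygous and wild-type colons 3 and 4, and between mutant and heterozygous ones 2 and 5. Their medians were 0.02, -0.02 and -0.02, beside 0.00364, -0.00441 and 0.00129 over all tested probe sets. Over the 9 arrays, which differ in the 3' to 5' ratio, the 21 pairs of leading probe sets had correlations between -0.57 for Cldn15 with Tjp1 and 0.65 for Cldn3 with Cldn7, with a median of -0.16. The order of the genotype means on the deposited scale also differed. Cldn3, Cldn4 and Cldn7 were lowest in mutant and highest in wild-type colons, and Cldn2 the reverse. Cldn8 and Cldn15 were lowest in heterozygous and highest in mutant, and Ocln and Tjp1 were highest in heterozygous colons. For Cldn2 the normalized log2 fold change of mutant against heterozygous was -0.00603, so its top 2 genotypes change places on that scale. No neighbouring pair in these orders passed the adjusted test, and on the deposited scale only heterozygous and wild-type Cldn3 on its brightest probe set and wild-type and mutant Cldn8 did not overlap.

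The genes with the most similar profile over the 9 arrays were taken by Pearson's r, as a description of these arrays only. They were Nars (0.949), Spryd4 (0.933) and Spdef (0.927) for Cldn2, Spdef being the transcription factor of goblet cells. By ranks these Cldn2 correlations were lower, with Spearman's rho of 0.733, 0.583 and 0.683. For Cldn8 the most similar genes were Ubap1 (0.914), Arntl (0.894), a core factor of the circadian clock, and Nab2 (0.893). For Cldn3 they were Muc3 (0.944), a membrane mucin, Rps14 (0.927) and Grcc10 (0.927), and for Cldn7 Nono (0.944), Cyb5r3 (0.943) and Lztfl1 (0.938). Cldn4 was most like Ahctf1 (0.957), Cldn15 most like 3110040N11Rik (0.948), Ocln most like Dapk1 (0.947), and Tjp1 most like Adam10 (0.969). Among the other probe sets r exceeded 0.9 for 0.00801% with Cldn8 and 0.416% with Tjp1.

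The rest of the junction was read through 7 lists of 120 genes, of which 100 were named on the array and 83 bright enough to test. None of the 83 was called in any comparison. At an unadjusted p below 0.05 there were 0 when mutant was set against wild-type, 3 higher and 2 lower when heterozygous was, and 2 higher and 2 lower between mutant and heterozygous colons. Over all tested probe sets 1.92% were higher and 1.92% lower for mutant against wild-type. The shares for heterozygous against wild-type are 3.61% and 2.41% of the 83, beside 4.46% and 3.55% over all tested probe sets. For mutant against heterozygous they are 2.41% each way, beside 4.07% and 3.49%.

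Among the other claudins 13 of 20 were named on the array and 10 of those were too dim, among them Cldn1 and Cldn18. The 3 tested were Cldn23, Cldn5 and Cldnd1. Cldn23 read 1487.4, 1364.3 and 1390 in wild-type mice, 1116.5, 1110 and 1221.9 in heterozygotes and 1269.2, 1370.8 and 954.3 in mutants. All heterozygous values were below all wild-type ones (log2 fold change -0.31, limma adjusted p = 0.621), and mutant values overlapped with both. Cldn5, the claudin of blood vessels, read 117.6 ± 4.6 in wild-type mice, 114.5 ± 5.41 in heterozygotes and 104.2 ± 24.4 in mutants.

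Of 14 further membrane proteins of the junction 10 were tested. Tmem47, which had the smallest p among them, read 661 ± 95.9 in heterozygous and 768 ± 84.3 in mutant colons (limma adjusted p = 0.676). Cxadr, the adhesion protein that serves coxsackieviruses as a receptor, had means of 616.4 ± 239, 788.1 ± 131 and 633.5 ± 123 in wild-type, heterozygous and mutant colons (adjusted p = 0.674 in heterozygous against wild-type), and Jam2 followed. The scaffold list had 11 tested genes, none called. Its median in mutant against heterozygous colons was 0.15, beside 0.00129 over all tested probe sets, with 9 of 11 positive and 2 negative. Cgnl1, paracingulin, read 245.9 ± 33.4 in mutant and 192.9 ± 12.2 in heterozygous colons, and Dlg1, a membrane scaffold of cell polarity, 1276 ± 45.5 and 1095 ± 70.4, without overlap (adjusted p = 0.655 and 0.707). Amotl2, which ties junctions to actin, read 203.4 ± 13.8 in mutant against 256.3 ± 29.7 in heterozygous colons, also without overlap (adjusted p = 0.649). In this comparison 4 of the 11 scaffold genes did not overlap, higher, and 1, lower, on the deposited scale. Of the 83 tested genes of all 7 lists 8.43% and 2.41% did so, and of all tested probe sets 5.75% and 4.59%. The scaffold median was the highest of any list in any comparison and was singled out for that. No test of the list was run.

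Of 13 tested polarity genes, Pard6g, a subunit of the apical Par complex, averaged 201.1 ± 53.3 in heterozygous against 140.9 ± 7.54 in wild-type colons (limma adjusted p = 0.584), with 145.7 ± 37.2 in mutant colons. Mark2 and Pard6b had the next smallest p. Of 16 tested genes of junction contraction and traffic, Rhoa, the GTPase that drives actomyosin contraction, averaged 3387 ± 275 in mutants and 2959 ± 253 in heterozygotes, a log2 fold change of 0.19 (adjusted p = 0.575). Wnk4, a kinase that acts on claudins, and Myl9 followed.

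The adherens junction and desmosome list, 14 genes tested, held the smallest p of all 83. Ctnnd1, p120 catenin, which stabilizes E-cadherin at the membrane, read 613.6, 724.9 and 765.9 in wild-type mice, 1104.7, 1197.1 and 931.2 in heterozygotes and 987.5, 732.6 and 952 in mutants. All heterozygous values were above all wild-type ones (log2 fold change 0.58, limma adjusted p = 0.483), while mutant 2 reached into the wild-type range. Cdh1, E-cadherin itself, averaged 4629 ± 176 in heterozygous against 4238 ± 135 in wild-type colons (adjusted p = 0.622), and Nectin2 415.4 ± 92.2 in wild-type and 540.1 ± 31.8 in mutant colons (adjusted p = 0.998).

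Among 16 tested partners and regulators, St14, the protease matriptase, which acts on the barrier through EpCAM and Cldn7, read 820.1 ± 69.7 in wild-type mice, 679.4 ± 75.8 in heterozygotes and 719.2 ± 22.8 in mutants (limma adjusted p = 0.601 and 0.998 against wild-type). Vdr, the vitamin D receptor, which is known to act on Cldn2, read 2971 ± 45.1 in wild-type mice, 2986 ± 184 in heterozygotes and 2689 ± 98.1 in mutants (adjusted p = 0.998 in mutant against wild-type). Grhl2, a transcription factor of epithelial junctions, was the next by p.

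**Figure D4:**
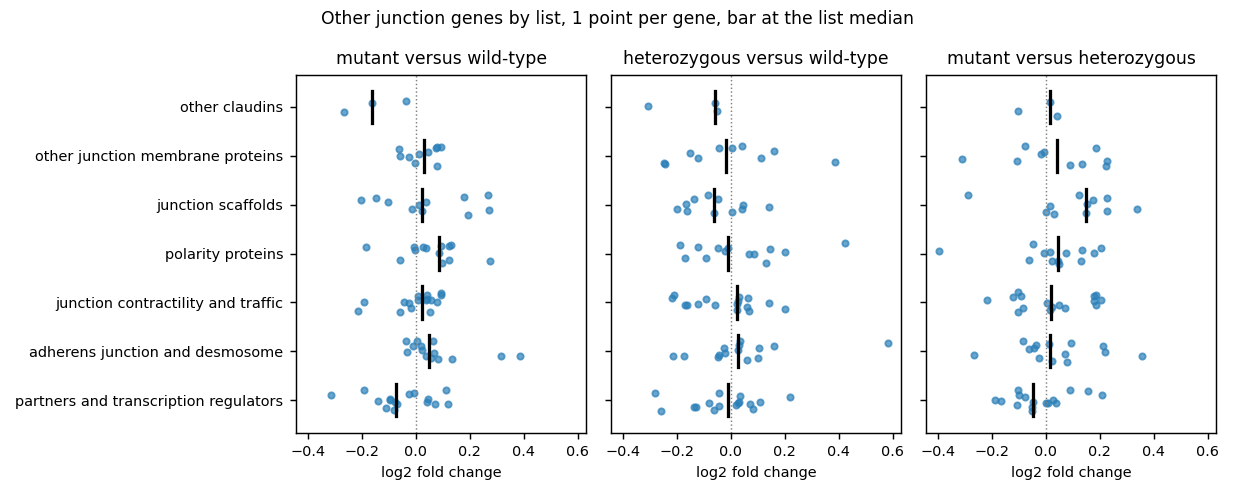
Log2 fold change (horizontal) of each tested gene of 7 junction lists, 83 genes in all, in the 3 comparisons; each point is 1 gene, its height within a list is only spread for legibility, and the bar is the list median. List medians lie between -0.16 for the 3 other claudins in mutant against wild-type and 0.15 for scaffolds in mutant against heterozygous colons.

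Markers of other cells in the tissue also varied between arrays, and none was called. In mutant against wild-type colons all 7 macrophage, all 7 fibroblast and matrix and all 3 T cell genes tested had a negative log2 fold change. Of 7 tested crypt base and cycling cell genes 6 were positive and 1 negative, with a median of 0.16 beside 0.00364 over all tested probe sets. All 9 interferon-induced genes measured had a negative log2 fold change in mutant and in heterozygous against wild-type colons, with summed signals of 6329 to 9372 in wild-type mice, 1959 to 7824 in heterozygotes and 2982 to 7368 in mutants. All 4 adipocyte genes measured were negative in mutant against wild-type colons, with sums of 6125 to 8796, 6046 to 8524 and 2705 to 6177, and their mean was lowest in mutant 1. For the 8 smooth muscle genes the sums were 31485 to 34406, 26618 to 30489 and 28799 to 35991, and 6 of 8 did not overlap, lower, in heterozygous against wild-type colons on the deposited scale, as did 5.9% of all tested probe sets. The part of these cells in the members' values was not tested.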

How the data were processed

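Expression was measured on an Affymetrix mouse array. Amplification used a NuGEN Ovation kit and 50 ng of RNA from each colon, with biotin as the label, per the labels' protocols. The values deposited by the authors are linear signal intensities, 1 per probe set and array. They come from GCOS, Affymetrix software, per the submitters' processing notes. How it scaled the arrays, and in which version, is not stated in the labels. Trimmed means were 500.1 to 500.2 in every array and medians 129.4 to 162.1. A value of 16 was added, log2 taken and the arrays quantile normalized, without the 64 control probe sets. The added value shrinks the fold changes of dim probe sets. P-values set a difference between genotypes against the spread within genotypes, estimated from these 9 samples with help from the other tested probe sets. Probe sets with a mean below the 40th percentile were left out, leaving 13576 of 22626. Each was tested with limma 3.58.1 in R 4.3.3 (lmFit, eBayes with trend, all 9 arrays, no covariate). A gene's leading probe set has its highest mean.

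Gene symbols are the platform annotation's and can be old: 20380 probe sets have 1, 691 several and 1555 none, and of 120 list genes 1 was matched by its Entrez ID. The members and lists were chosen with earlier results of these data known. Named list genes are those called, else the 3 with the smallest p, and similar genes the 3 with the highest r. The fit was tested on simulated data. Figures were drawn with matplotlib 3.10.9.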

Additional observations from a re-analysis of the deposited data

How the results depend on the processing

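No member probe set was called under any of the 14 other settings or with any array left out; the smallest adjusted p of a member's leading probe set was 0.094, for Cldn3 in heterozygous against wild-type colons. Of 342 values of member fold changes under those settings or on other probe sets, 327 kept their direction and 15 turned. With array weights Cldn2 was -0.000901 and Ocln 0.0646 in mutant, and Cldn8 0.24 and Cldn15 0.00491 in heterozygous colons, each against wild-type. With epithelial markers as a covariate Cldn15 was -0.00882 in mutant against wild-type and Cldn2 0.00254 in mutant against heterozygous colons; with the 3' to 5' ratio the latter was 0.0546. Without the 3 arrays numbered 1 Cldn8 was 0.30 in heterozygous against wild-type, and Cldn2 0.39 and Cldn4 0.16 in mutant against heterozygous colons. With median centring Cldn3, Cldn7 and Tjp1 were 0.0207, 0.02 and 0.00566 in mutant against heterozygous colons. Other Cldn3 probe sets gave 0.04 and 0.0126 in heterozygous against wild-type.

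With 1 array left out, the ranges that cross 0 were -0.0594 to 0.0562 for Cldn15 in heterozygous against wild-type, -0.032 to 0.0836 for Cldn15, -0.35 to 0.32 for Cldn2, -0.0589 to 0.0171 for Cldn3 and -0.28 to 0.19 for Cldn4 in mutant against heterozygous, -0.26 to 0.41 for Cldn2 and -0.165 to 0.0203 for Ocln in mutant against wild-type, and -0.21 to 0.15 for Cldn8 in heterozygous against wild-type. The cause of these turns was not tested.

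Over all probe sets, the 3 calls in mutant against wild-type became 9 with array weights, 5 with the 3' to 5' ratio, 9 without the arrays numbered 1, and 2 to 4 with 1 array left out. The 0 calls in heterozygous against wild-type, beside 1087 at an unadjusted p below 0.05 in limma, became 134 with array weights and 0 to 3 with 1 array left out, the 3 without heterozygous 3. The 3 calls in mutant against heterozygous became 5 with only the 2 genotypes compared, 5 with epithelial markers as a covariate and 1 to 7 with 1 array left out: 5 and 6 without wild-type 1 and 3, 7 without heterozygous 3, and 1 without heterozygous 1 or mutant 2. The replicate numbers pair no samples by the labels, and deviations of same-numbered arrays correlated between -0.059 and 0.463; with the replicate number as a block the calls were 5, 0 and 8, none a member. Cldn4 and the dimmer Cldn2 probe set lay below the signal limit and were fitted only without the filter.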
